A study of Mus musculus with 8 samples.

Results

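Chemokine ligands are small secreted proteins that attract white blood cells, and they were measured here in belly skin of mice that carry a transgene for human hurpin. The ligands were taken as every probe set annotated to exactly 1 gene symbol made of Ccl, Cxcl or Cx3cl and a number, leaving out Cxcl1, Cxcl9 and Cxcl10, which gave 44 of 45101 probe sets for 29 genes. The symbol Ccl27a, which has a letter after its number, was counted among them, and 4 probe sets that name a ligand together with other genes were not. The transgenic group held 4 hurpin-transgenic mice (females 7 and 84, males 11 and 17). The wildtype group held 3 wildtype mice (males 26 and 28, female 29), with female 29 measured on 2 of the 8 arrays. All were 8 months old, and the promoter that drives the transgene, the strain and the number of transgenic lines are not given in the sources used here. Hurpin is a serpin that inhibits the protease cathepsin L.

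Chemokines bind receptors that couple to G proteins, and cells move up the gradient of the ligand that their receptor reads. In skin some ligands are made steadily by keratinocytes and fibroblasts and hold resident cells in place, while others are made by macrophages, dendritic cells and stressed keratinocytes and bring in monocytes, neutrophils, eosinophils or T cells. The naming of the subfamilies follows the spacing of the first cysteines of the protein.

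Levels are given as log2 of the deposited signal intensity plus 21.8, so a probe set with no signal stands at a floor of 4.45, and differences are transgenic minus wildtype on that log2 scale. A probe set counted as measured when its mean over the 7 animals reached 6.45. Brightness differs between probe sets for reasons other than transcript amount, so each is compared only with itself across animals. Keratinocyte markers (Krt1, Krt5, Krt10, Krt14 and Lor) and fibroblast markers (Col1a1, Col1a2, Col3a1, Dcn and Lum) lay between 11.74 and 15.51 in every animal. The Gapdh control probe sets lie at the 3′ and 5′ ends of the transcript, and their ratio is high where signal is lower at the 5′ end. RNA integrity and the reach of labelling cannot be told apart from it. The 3′/5′ ratio was 13.8, 17.2, 4.68 and 1.45 in transgenic 7, 84, 17 and 11, against 0.927 to 1.41 on the wildtype arrays (exact permutation test on the log2 ratio, 2-sided p = 0.0571, at the limit that 4 against 3 animals allow). The log2 Gapdh ratio had an SD of 1.64 among the transgenic animals (n = 4) and 0.08 among the wildtype animals (n = 3). Differences adjusted for it therefore rest on its spread among the transgenic animals, and group and ratio can hardly be told apart. In whole skin, fewer cells of a type and less RNA per cell cannot be told apart.

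No ligand passed the test of transgenic against wildtype skin. Of the 44 probe sets 30 were measured, for 24 of the 29 genes, and limma called 0 of the 30 at an adjusted p under 0.05, where it called 0.0148% of all 27022 probe sets tested. Taking for each gene the probe set with the highest mean level, 13 of 24 ligands had a difference above 0 and 11 below. The median difference of the ligands was 0.02, beside 0.05 over all 13559 genes, 56.3% of which lay above 0. By limma's unadjusted p, 0 ligands were higher and 1 (Ccl20) lower at the 0.05 level, where 4.4% of all genes were higher and 4.6% lower. The groups did not overlap for 1 ligand, which was higher, where 5.16% of genes were higher and 3.89% lower without overlap, 9.06% in all. Over the 30 probe sets 15 lay above 0 (50.2% of all tested), the unadjusted threshold was passed by 0 upwards and 2 downwards (3.77% and 7.93%), and 1 was higher and 1 lower without overlap (4.58% and 6.71%). Adjusted p over the 24 genes ran from 0.356 to 0.992.

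**Figure D1:**
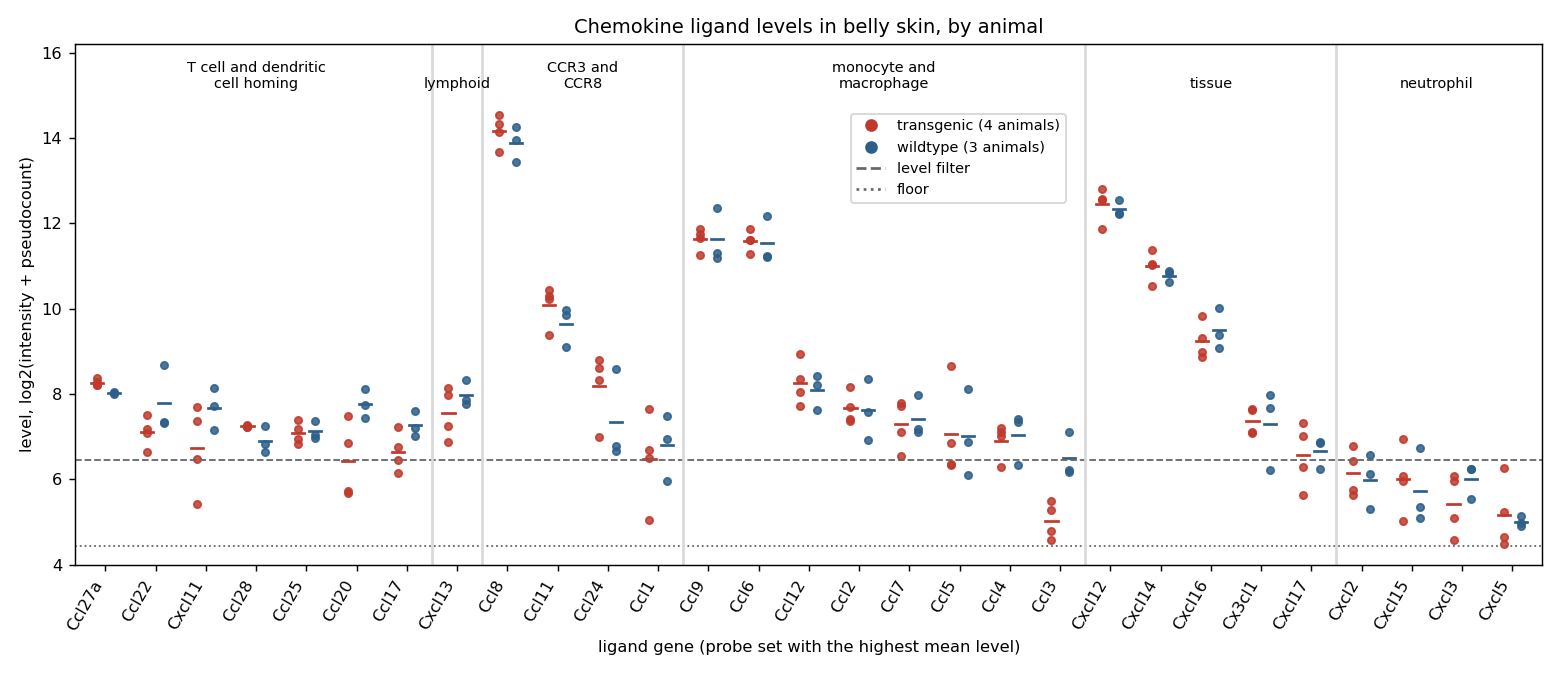
Level of each of the 29 ligand genes in every animal (points, log2 of intensity plus pseudocount; horizontal bars are group means), with transgenic animals left of wildtype and genes grouped by role. Only Ccl8, Cxcl12, Ccl9, Ccl6, Cxcl14, Ccl11 and Cxcl16 had a mean above 9, and the 4 neutrophil-attracting ligands and Ccl3 lay below the level filter.

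Among the 24 measured genes, each at its probe set with the highest mean, the lowest differences were those of Ccl20, Cxcl11, Ccl22 and Ccl17. All are ligands that guide T cells or dendritic cells. Of the 7 measured ligands listed under that role, 5 lay below 0, with Ccl25 at -0.05, and 2 above (Ccl27a and Ccl28), where 56.3% of all genes lay above. This count depends on the role lists, which were chosen with earlier results of these data known. Some ligands that also attract T cells, such as Ccl8, were listed under other roles. Ccl20, the ligand of CCR6 that attracts immature dendritic cells and interleukin-17-producing T cells, measured 5.67, 5.74, 7.48 and 6.86 in transgenic 7, 11, 17 and 84, against 8.12, 7.73 and 7.43 in wildtype 26, 28 and 29. Transgenic 17 reached just into the wildtype range, and the other transgenic animals lay below it. As intensity, transgenic 7 and 11 read 29.2 and 31.5, while the wildtype arrays read 150.2 to 256.0. The mean was 6.44 ± 0.89 in the transgenic group (SD, n = 4) and 7.76 ± 0.34 in the wildtype group (SD, n = 3), a difference of -1.32 (SE 0.46, 95% interval from -2.37 to -0.27, limma adjusted p = 0.356). Adjusted for the Gapdh ratio it was -1.57, and with a 4 times larger pseudocount it was -0.85.

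Ccl17 and Ccl22 are the ligands of CCR4, a receptor of skin-homing T cells, and both are products of dendritic cells. Ccl17 measured 6.14, 6.76, 6.45 and 7.22 in transgenic 7, 11, 17 and 84, against 7.60, 7.01 and 7.21 in wildtype 26, 28 and 29, a difference of -0.63 (SE 0.31, limma adjusted p = 0.468). Transgenic 84 lay inside the wildtype range and the other transgenic animals below it. Ccl22 measured 6.64, 7.18, 7.50 and 7.08 in transgenic 7, 11, 17 and 84, against 8.68, 7.35 and 7.33 in wildtype 26, 28 and 29. Its difference of -0.69 (SE 0.37, limma adjusted p = 0.498) rested on wildtype 26, and without that animal it was -0.24.

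Cxcl11 is a ligand of CXCR3, a receptor of activated T cells, and RefSeq lists its gene as a transcribed pseudogene on the reference assembly. It measured 5.42, 7.69, 7.37 and 6.48 in transgenic 7, 11, 17 and 84, against 7.72, 7.16 and 8.14 in wildtype 26, 28 and 29 (difference -0.94, SE 0.53, limma adjusted p = 0.514). The low transgenic animals were females 7 and 84, which also had the highest Gapdh ratios. Adjusted for the Gapdh ratio the difference of Cxcl11 turned to 0.34. A dimmer Cxcl11 probe set that missed the level filter gave -0.31.

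The promoters of the 3 ligands with the smallest p in this comparison are shown because their probe sets were all lower on average in transgenic skin. They are RefSeq windows of 300 bases around the annotated start on GRCm38.p6, each on the plus strand: Ccl20 at chr1:83116516-83116815, Ccl17 at chr8:94810203-94810502 and Ccl22 at chr8:94745434-94745733. Capitals mark matches on either strand to any of 4 motifs: TATAAA (the TATA box), TGANTCA (an AP-1 element), the NF-kB consensus, and TTC and GAA set 4 bases apart (the spacing bound by STAT6).
Ccl20: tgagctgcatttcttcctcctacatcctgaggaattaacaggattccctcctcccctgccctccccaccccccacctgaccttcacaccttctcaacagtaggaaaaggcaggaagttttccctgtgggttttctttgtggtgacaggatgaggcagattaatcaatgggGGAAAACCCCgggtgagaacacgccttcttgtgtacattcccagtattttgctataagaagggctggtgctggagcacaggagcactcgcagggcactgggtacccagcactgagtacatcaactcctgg
Ccl17: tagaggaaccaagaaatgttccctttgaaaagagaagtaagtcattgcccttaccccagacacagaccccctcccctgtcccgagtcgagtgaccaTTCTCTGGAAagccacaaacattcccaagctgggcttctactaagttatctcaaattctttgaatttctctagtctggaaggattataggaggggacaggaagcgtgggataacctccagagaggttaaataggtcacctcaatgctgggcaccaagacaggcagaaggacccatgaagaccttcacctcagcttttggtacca
Ccl22: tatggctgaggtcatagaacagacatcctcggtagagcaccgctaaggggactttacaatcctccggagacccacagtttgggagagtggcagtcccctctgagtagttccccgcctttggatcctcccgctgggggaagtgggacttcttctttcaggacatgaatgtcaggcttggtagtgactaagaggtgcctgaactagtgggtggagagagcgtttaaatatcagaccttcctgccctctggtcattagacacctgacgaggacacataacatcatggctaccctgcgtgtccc
Ccl20 held 1 match, to the NF-kB consensus, and Ccl17 held 1, to the STAT6 spacing. None of these letters occurred in the Ccl22 window. Of all 32851 promoter windows in the table, 4.51% held the NF-kB consensus, 6.95% the STAT6 spacing, 13.6% TATAAA and 7.81% TGANTCA. The table held 22 windows for 19 of the 29 ligand genes, of which 5 held the NF-kB consensus (Ccl20, Ccl27a, Ccl9, Cxcl2 and Cxcl3), 1 the STAT6 spacing (Ccl17), 8 TATAAA and 3 TGANTCA. A match describes the letters and is not evidence of binding.

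The ligands of CCR10, the receptor of skin-homing and mucosal lymphocytes, had positive differences at their probe sets with the highest mean. Ccl27a, made by keratinocytes, measured 8.20, 8.21, 8.28 and 8.38 in transgenic 7, 11, 17 and 84, against 8.02, 8.01 and 8.04 in wildtype 26, 28 and 29. It was the ligand whose groups did not overlap, with a difference of means of 0.25 (SE 0.16, 95% interval from -0.11 to 0.61, limma adjusted p = 0.564). Ccl28, made by epithelia, measured 7.24 to 7.29 in the 4 transgenic animals, against 7.25, 6.82 and 6.64 in wildtype 26, 28 and 29. The transgenic animals were tightly grouped and wildtype 26 stood with them (difference 0.35, SE 0.23, limma adjusted p = 0.573). The arrays of wildtype 29 themselves read 6.25 and 7.02 for this probe set. The other probe sets of Ccl28 lay below the level filter and gave 0.39 and -0.15. Ccl25, the ligand of CCR9 best known from thymus and gut, gave -0.05, which turned to 0.04 after quantile or cyclic loess normalization. Markers of the cells that these ligands address or come from overlapped between the groups. The mean of 4 Langerhans and antigen-presentation markers ranged from 12.26 to 12.50 in transgenic and from 11.86 to 12.90 in wildtype skin, with 4 of 4 above the level filter. That of T cell markers ranged from 7.94 to 8.68 and from 7.69 to 8.68, with 4 of 5 above the filter and Cd4 below it. Their part in the ligand differences was not tested.

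**Figure D2:**
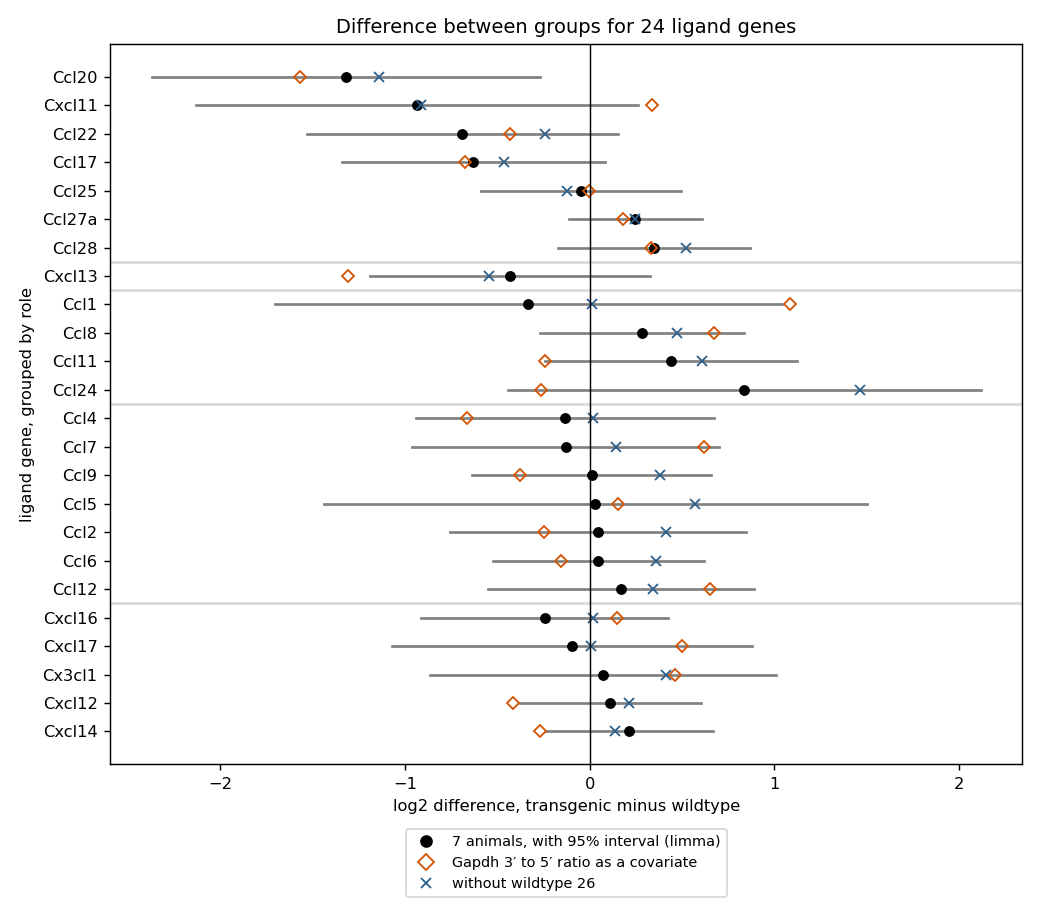
Log2 difference, transgenic minus wildtype, for the 24 measured ligand genes grouped by role. Filled points with bars are the estimate over 7 animals with its 95% interval (limma). Open diamonds are the estimate adjusted for the Gapdh ratio, which can hardly be separated from the group, and crosses that without wildtype 26. Of the 24 intervals, that of Ccl20 lies below 0. The diamonds of Cxcl11, Ccl11 and Ccl24 are among those on the other side of 0 from their filled points.

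Of the 4 ligands of CCR3 and CCR8, 3 had a difference above 0, and 56.3% of all genes did. Ccl11 and Ccl24, both eotaxins that attract eosinophils through CCR3, had the largest positive differences of the 24. Ccl24 measured 8.33, 6.99, 8.61 and 8.80 in transgenic 7, 11, 17 and 84, against 8.60, 6.67 and 6.77 in wildtype 26, 28 and 29. Transgenic 11 and wildtype 26 each stood with the other group, and the difference was 0.84 (SE 0.56, limma adjusted p = 0.582), or 1.46 without wildtype 26. The arrays of wildtype 29 themselves read 7.64 and 5.90 for this probe set.

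Ccl11 measured 10.44, 9.39, 10.22 and 10.29 in transgenic 7, 11, 17 and 84, against 9.98, 9.11 and 9.86 in wildtype 26, 28 and 29 (difference 0.44, SE 0.30, limma adjusted p = 0.587). In each of Ccl11 and Ccl24 the low transgenic animal was 11, the one with the lowest Gapdh ratio. Adjusted for the Gapdh ratio, which can hardly be separated from the group, the differences turned to -0.26 for Ccl24 and -0.24 for Ccl11. Ccl8, in mouse a ligand of CCR8 that attracts type 2 helper T cells, measured 14.13, 14.32, 14.54 and 13.67 in transgenic 7, 11, 17 and 84, against 14.26, 13.94 and 13.44 in wildtype 26, 28 and 29 (difference 0.28, 95% interval from -0.27 to 0.83). The groups overlapped along most of their range. Ccl1, another CCR8 ligand, ranged from 5.04 to 7.66 in transgenic and from 5.96 to 7.49 in wildtype skin (difference -0.33). Mast cell markers, which belong to another cell of type 2 responses, had list means of 9.53 to 10.23 in transgenic and 9.12 to 9.72 in wildtype skin with 5 of 5 above the filter, and their part in these values was not tested.

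The 7 measured CC ligands of monocytes and macrophages had differences between -0.13 and 0.17 and a median of 0.03, with 95% intervals that all included 0. Ccl6 and Ccl9, macrophage and myeloid products that signal through CCR1 in mouse, are neighbouring genes with no protein-coding gene between them. Ccl9 measured 11.86, 11.26, 11.66 and 11.75 in transgenic 7, 11, 17 and 84, against 12.36, 11.31 and 11.19 in wildtype 26, 28 and 29. Ccl6 measured 11.61, 11.27, 11.86 and 11.61 in the same transgenic animals, against 12.17, 11.21 and 11.24 in the wildtype animals. Both were highest in wildtype 26, and in both the other wildtype animals and transgenic 11 were the lowest. The differences were 0.01 (95% interval from -0.64 to 0.66) for Ccl9 and 0.05 (from -0.52 to 0.62) for Ccl6, and after cyclic loess normalization they were -0.04 and -0.002.

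Ccl2, Ccl7 and Ccl12 are monocyte chemoattractants that act through CCR2. Their differences were 0.05, -0.13 and 0.17, each with a 95% interval that reached at least 0.70 on one side. Ccl5, made by T cells, stood at 8.67 in transgenic 17 and 8.11 in wildtype 26, with the other transgenic animals between 6.34 and 6.86 and the other wildtype animals at 6.87 and 6.09 (difference 0.03). Ccl4, made by activated macrophages, gave -0.13. Ccl3, a macrophage product that signals through CCR1, was below the level filter with a mean of 5.67. Its intensities were 5.7, 23.2, 17.4 and 2.0 in transgenic 7, 11, 17 and 84, against 50.3 to 117.1 on the wildtype arrays, so the groups did not overlap. Fitted with no level filter, the difference of Ccl3 was -1.47 (SE 0.35, limma adjusted p = 0.34). Among the 18015 probe sets below the filter 6.57% had groups that did not overlap, and of the 14 ligand probe sets there 2 had (this one and a probe set of Cx3cl1). Macrophage marker means ranged from 11.08 to 11.82 in transgenic and from 11.01 to 12.16 in wildtype skin, with 6 of 6 above the filter.

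Of the ligands of lymphoid organs Cxcl13 had probe sets of its own. Cxcl13, the ligand of CXCR5 that gathers B cells, was read by 2 measured probe sets. The brighter gave 7.97, 6.88, 7.24 and 8.13 in transgenic 7, 11, 17 and 84, against 7.76, 8.33 and 7.87 in wildtype 26, 28 and 29 (difference -0.43, limma adjusted p = 0.636). The other gave 6.77, 6.36, 7.00 and 7.19, against 7.55, 7.99 and 7.23 (difference -0.76, SE 0.29, limma adjusted p = 0.383). With the arrays of wildtype 29 averaged, the groups did not overlap in the second but did in the first, where both transgenic females stood inside the wildtype range. For the second probe set the arrays of wildtype 29 themselves read 7.38 and 7.09, and transgenic 84 lay between these readings. Of 5 B cell and lymph node markers 4 had a probe set, and 0 lay above the level filter.

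Of the 5 ligands made steadily by tissue cells, 3 had a difference above 0 and 2 below, with a median of 0.07. Cxcl12, the fibroblast and endothelial ligand of CXCR4, measured 12.80, 11.88, 12.57 and 12.54 in transgenic 7, 11, 17 and 84, against 12.54, 12.24 and 12.22 in wildtype 26, 28 and 29. Transgenic 11 was the lowest of all animals, and the difference was 0.11 (95% interval from -0.38 to 0.60). Cxcl14, a ligand of epidermis and dermis, measured 11.05, 10.54, 11.01 and 11.37 in the transgenic animals, against 10.62, 10.83 and 10.88 in the wildtype animals (difference 0.22). Its other probe set gave -0.17, with wildtype 26 lowest at 9.62 and wildtype 28 highest at 11.14. Cxcl16, a membrane-bound ligand of CXCR6, gave -0.24 and 0.11 from its 2 probe sets. Cx3cl1, the membrane-bound ligand of CX3CR1 known as fractalkine, gave 0.07 (95% interval from -0.87 to 1.01). Cxcl17, a mucosal ligand, gave -0.10 (from -1.07 to 0.88).

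The CXC ligands that attract neutrophils through CXCR2, Cxcl2, Cxcl3 and Cxcl5, and the lung-associated Cxcl15 had no probe set above the filter. Their highest reading in any animal was 7.02, for a probe set of Cxcl15 in transgenic 11. Neutrophil markers had list means of 8.52 to 10.29 in transgenic skin, highest in transgenic 17 and 11, and of 8.22 to 8.93 in wildtype skin. The 5 markers listed were S100a8, S100a9, Mpo, Elane and Ly6g. Of these, 4 were on the array, 3 of them above the filter and Elane below it. Which cells of the skin these marker transcripts came from, and their relation to the ligands, was not tested.

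Among the chemokine receptors, Cxcr4 and Cxcr3 were above every wildtype animal in every transgenic animal, without passing the test. Of 24 receptors listed, 22 had a probe set and 13 were measured, 7 above 0 and 6 below, with a median of 0.07. The groups did not overlap for 2 of the 13, both higher (5.16% of all genes). Limma called 0 of the 13 at an adjusted p under 0.05, while 3 stood higher and 0 lower by the unadjusted threshold of 0.05 (4.4% and 4.6% of all genes). Cxcr4, the receptor of Cxcl12 on leukocytes and progenitors, measured 8.53, 8.34, 8.34 and 8.25 in transgenic 7, 11, 17 and 84, against 7.17, 7.67 and 7.64 in wildtype 26, 28 and 29. All transgenic animals lay above all wildtype animals, by 0.87 on average (SE 0.20, 95% interval from 0.42 to 1.32, limma adjusted p = 0.294), and the difference was 0.86 when adjusted for the Gapdh ratio. Cxcr3, the receptor of Cxcl11, measured 7.96, 8.35, 8.12 and 7.91 in the transgenic animals, against 7.61, 7.37 and 7.65 in the wildtype animals, again with no overlap (difference 0.54, SE 0.19, limma adjusted p = 0.367). Over its alternatives the difference lay between 0.68 and 0.98 for Cxcr4 and between 0.42 and 0.84 for Cxcr3, with adjusted p from 0.0967 to 1.0 and from 0.225 to 1.0.

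Ccr9, the receptor of Ccl25, gave 1.15 from a probe set that ranged from 6.81 to 7.77 in transgenic and from 5.23 to 7.27 in wildtype skin (limma adjusted p = 0.422). The 4 other probe sets of Ccr9 lay below the filter and gave -0.53 to 0.51. Ccr2, the receptor of Ccl2, Ccl7 and Ccl12 on monocytes, gave -0.15 from the probe set with the highest mean. A dimmer measured probe set of Ccr2 gave 7.19, 7.09, 7.36 and 5.58 in transgenic 7, 11, 17 and 84, against 8.46, 7.54 and 7.41 in wildtype 26, 28 and 29. With the arrays of wildtype 29 averaged the groups did not overlap (means 6.81 and 7.80, limma adjusted p = 0.447). The arrays of wildtype 29 themselves read 7.16 and 7.67, and transgenic 7 and 17 lay above the lower reading. The third measured probe set of Ccr2 gave -0.22. The atypical receptors, which take up chemokines without G protein signalling, gave 0.50 for Ackr2, 0.43 for Ackr3, 0.39 for Ackr4 and 0.07 for Ackr1. Adjusted for the Gapdh ratio Ackr3 gave 0.03, and the other measured probe sets of Ackr4 gave 0.09 and -0.56. Of the receptors of Ccl20, Ccl17 and Ccl22, Ccr6, which binds Ccl20, gave -0.19 (95% interval from -1.08 to 0.70), and Ccr4 was below the filter. Ccr10, which binds Ccl27a and Ccl28, was also below the filter, with 7.17 in wildtype 26 and 5.17 to 6.69 in the other animals.

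**Figure D3:**
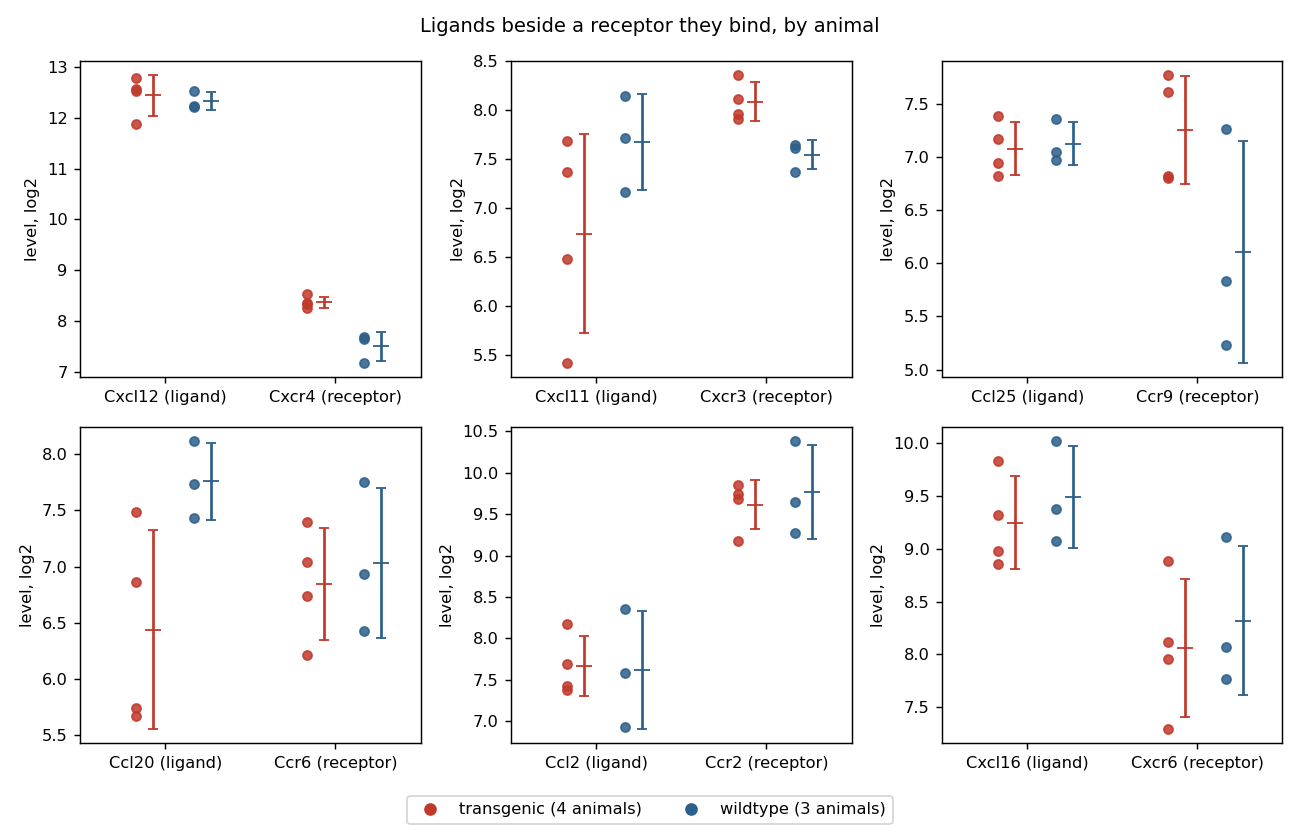
Level (log2) of 6 ligands and of a receptor that each binds, in every animal; points are animals, with transgenic left of wildtype, and bars are mean ± SD (n = 4 and 3). Cxcr4 and Cxcr3 were higher in all 4 transgenic animals than in all 3 wildtype animals while Cxcl12 and Cxcl11 overlapped; heights of different genes on 1 axis are not comparable.

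Wildtype 26 stood high for many ligands. It was the highest of the 7 animals for 9 of the 24 ligand genes and the lowest for 0, and its median deviation from the mean of all animals was 0.59. The other 6 animals had median deviations between -0.18 and 0.16. These values were taken over the ligands only, so they do not show a trait particular to ligands. The 9 highest readings of wildtype 26 were of Ccl22, Ccl20, Ccl17, Ccl9, Ccl6, Ccl2, Ccl7, Cxcl16 and Cx3cl1. The same animal had the lowest mean of hair shaft markers, 6.86. The transgenic animals had 9.68 to 13.45, lowest in transgenic 17, and the other wildtype animals 13.58 and 13.71. Wildtype 26 also had the highest marker means for macrophages (12.16), Langerhans cells (12.90), endothelium (9.26), keratinocytes (14.43), fibroblasts (15.15) and skeletal muscle (14.16). For T cells it and transgenic 17 both had 8.68. It was not the highest for neutrophils (8.75), mast cells (9.72), lymphatic endothelium (11.04), adipocytes (13.04) or mammary gland (5.99). The part of these markers in the ligand values was not tested. Without wildtype 26, 18 of the 24 ligands lay above 0, with a median of 0.18 against 0.05 over all genes, 55.5% of which lay above 0, and limma called 0. Ccl20, Ccl17, Ccl22, Cxcl11, Cxcl13 and Ccl25 were then the ligands below 0.

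**Figure D4:**
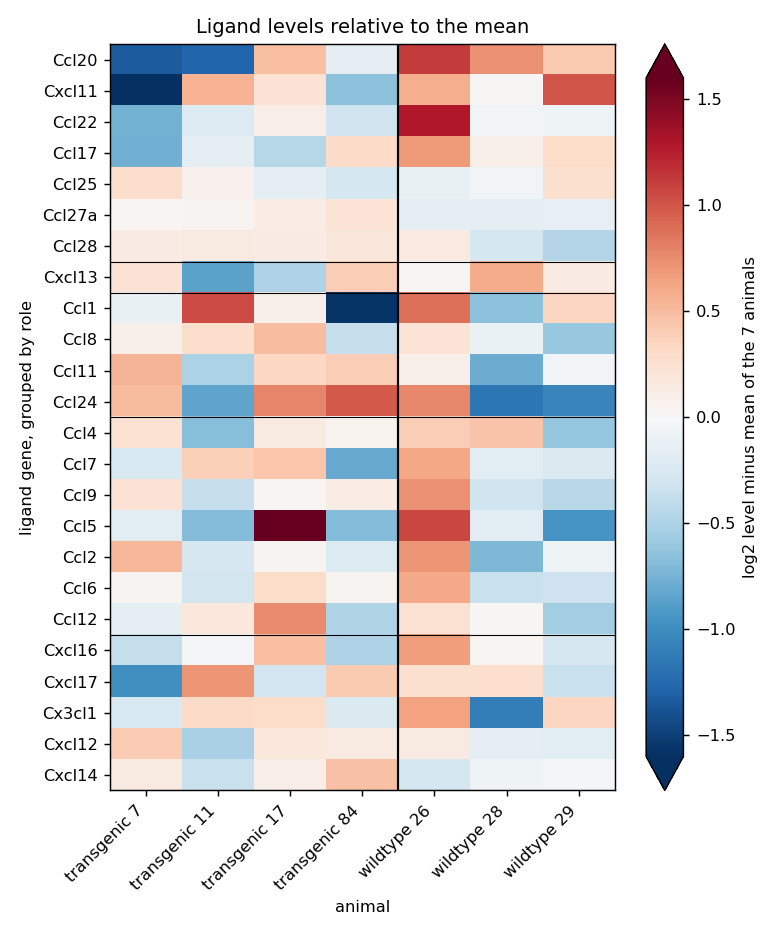
Level of each of the 24 ligand genes in each animal minus the mean of the 7 animals (colour, log2; red above the mean, blue below), with transgenic animals left of the line and wildtype right. Wildtype 26 is above the mean for most ligands, and transgenic 7 and 11 are the lowest for Ccl20.

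The repeated array of wildtype 29 gave 1 reading of technical error for each ligand, which does not cover the spread between animals. Among the 12 probe sets with a mean of 9 or above the arrays differed by 0.13 in the median and by at most 0.32. Among the 16 between the level filter and 8 the median gap was 0.46 and the largest 1.75, for Ccl24. In 18 of the 30 measured probe sets the gap between the arrays of 1 animal was larger than the difference between the groups. A gap between single arrays and a difference of group means are unlike measures, and the count was not taken over all probe sets. For Ccl20 it was 0.005, while Ccl4 and Ccl5 had gaps of 1.31 and 1.27 against group differences of -0.13 and 0.03.

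**Figure D5:**
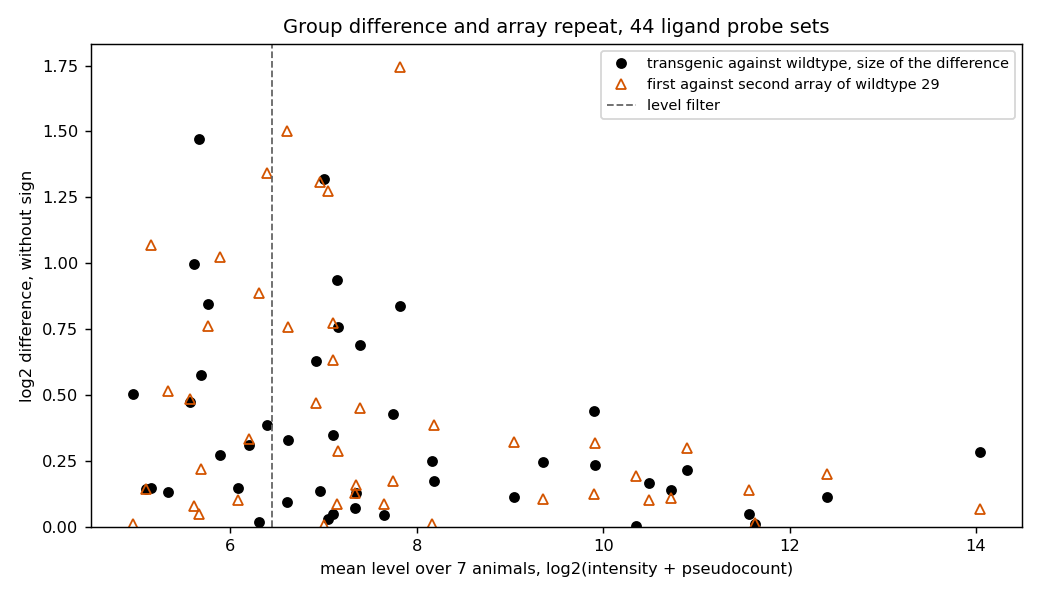
Size of the difference between groups (filled points) and between the 2 arrays of wildtype 29 (open triangles), both in log2 without sign, against the mean level of each of the 44 ligand probe sets. Array gaps stay at or under 0.32 above a level of 9 and reach 1.75 below 8.

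Where a ligand gene had several probe sets they often disagreed. Of 11 such genes 5 had the same sign on every probe set (Ccl6, Cx3cl1, Cxcl11, Cxcl13 and Cxcl15). All 4 probe sets of Cx3cl1 lay above 0, and the largest difference came from a probe set below the filter that measured 6.58, 5.68, 5.99 and 5.91 in transgenic 7, 11, 17 and 84, against 5.61, 4.87 and 4.66 in wildtype 26, 28 and 29. The brightest Cx3cl1 probe set gave 0.07, with an interval from -0.87 to 1.01. Group differences of the ligands were also compared between the sexes. With group, sex and their product in the fit, limma called 0 of the 30 ligand probe sets at an adjusted p under 0.05 (0.0% of all 27022) and gave 2 at an unadjusted p under 0.05 (2.86% of all), Cxcl11 with an interaction of -2.28 (SE 0.71) and Ccl4 with 1.47 (SE 0.62), both at an adjusted p of 1.0. The wildtype group held 1 female, and both transgenic females had high Gapdh ratios, so sex and ratio cannot be told apart there.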

How the data were processed

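Total RNA of belly skin had been hybridised by the submitters to Affymetrix arrays. The authors deposited linear signal intensity, computed with MAS5 per the submitters' processing notes, and every array had a mean of 500.003 after leaving out the lowest and highest 2%. The sum of intensity over an array was 34785081 to 37857733. Precision is limited by how few arrays there are. Gene symbols are those of the platform annotation (34945 probe sets with 1 symbol, 932 with several, 9160 with none).

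Tests used log2(intensity + 21.8), the added constant being the 20th percentile of the table, with the arrays of wildtype 29 averaged. Probe sets under the 40th percentile of mean log2 were left out. The test was limma 3.58.1 under R 4.3.3 (trend, 2-sided, Benjamini-Hochberg over 27022 probe sets), and the fit was tested on simulated data. For each gene the probe set with the highest mean was used, and every measured ligand was named. Animals are separate mice per the labels. The ligands and the lists of roles, receptors and markers were chosen with earlier results of these data known. Alternatives covered normalization, pseudocount, filter, variance model, covariates, arrays of wildtype 29 and animals left out. Python 3.11.15 was used for summaries and figures.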

Additional observations from a re-analysis of the deposited data

How the results depend on the processing

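Limma called 0 ligand probe sets and 0 receptor genes under each of the 21 alternatives of the group comparison, where the smallest adjusted p of a ligand lay between 0.213 (without transgenic 11) and 1.0 (adjusted for the Gapdh ratio). Of the 24 ligand genes, 13 lay above 0, and 9 to 18 with 1 animal left out, the lowest without transgenic 17 and the highest without wildtype 26. The sign of 7 ligands (Ccl20, Ccl17, Ccl22, Ccl27a, Ccl28, Cxcl13 and Ccl8) never turned over the alternatives run, and that of 17 turned in at least 1. Adjusted for the Gapdh ratio, the sign turned for Cxcl11 (0.34), Ccl24 (-0.26), Ccl11 (-0.24), Ccl1 (1.08), Ccl7 (0.62) and Cxcl17 (0.50). It also turned for Cxcl12 (-0.42), Ccl9 (-0.38), Cxcl14 (-0.27), Ccl2 (-0.25), Ccl6 (-0.15) and Cxcl16 (0.15). In that fit Cxcl13 moved to -1.31 and Ccl8 to 0.68, and group and ratio can hardly be told apart. The cause was not tested. Without transgenic 7 and 84, 13 ligands lay above 0, where 55.9% of all genes did. With a filter at the 60th percentile 10 ligand genes were left, 9 above 0, where 57.6% of all genes left were above 0. With 1 animal left out the difference ran from -1.67 to -1.07 for Ccl20. The log2 3′ to 5′ ratio differed by 2.52 for Gapdh and by 0.72 for Actb (exact permutation p = 0.0571 and 0.114). No paired analysis was possible because the groups share no animal number. Among the 16 measured ligand probe sets with a mean under 8, the gap between arrays of wildtype 29 exceeded the group difference in 10. The same was not counted over all probe sets.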

Other observations

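On chromosome 8 of the RefSeq assembly GRCm38.p6, Ccl22, Cx3cl1 and Ccl17 follow each other with no protein-coding gene between them, and their differences were -0.69, 0.07 and -0.63. On chromosome 11, Ccl2, Ccl7, Ccl11, Ccl12, Ccl8 and Ccl1 form a run with differences of 0.05, -0.13, 0.44, 0.17, 0.28 and -0.33, and Ccl5, Ccl9, Ccl6, Ccl3 and Ccl4 form another with 0.03, 0.01, 0.05, -1.47 and -0.13, where Ccl3 was below the level filter. No test was made of these runs.

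Lymphatic vessels carry dendritic cells towards lymph nodes. Of 3 lymphatic endothelial markers listed, 2 were above the filter (Lyve1 and Pdpn) and Prox1 was below it. The mean of Lyve1 and Pdpn was 10.89 to 11.29 in transgenic and 10.26 to 11.04 in wildtype skin, so the groups overlapped. Which cells of the skin these transcripts came from was not tested.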
